A study of Mus musculus with 4 samples.

Results

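The 45 genes described here encode the core machinery that copies DNA, and they were found by gene name among the 56748 genes of the deposited count table. RNA was sequenced from E14 cells, an embryonic stem (ES) cell line of the mouse grown without feeder cells, in 4 libraries. WT1 and WT2 came from wild-type (WT) cells. KO1 and KO2 each came from 1 of 2 lines in which Npac, a reader of the H3K36me3 histone mark listed as Glyr1 in the table, had been knocked out (KO) with CRISPR/Cas9. The KO lines were picked as colonies after puromycin selection, so the genotype and the history of each clone cannot be told apart. Nothing states whether WT1 and WT2 were separate cultures, so the p-values below measure the spread between these libraries, which may be technical.

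Replication starts when the origin recognition complex (Orc1 to Orc6) marks an origin and Cdc6 and Cdt1 load the ring-shaped MCM helicase (Mcm2 to Mcm7) onto it, a step called licensing that geminin (Gmnn) blocks once S phase begins. Cdc45 and the GINS complex then turn the ring into a working helicase, DNA polymerase alpha and its primase lay primers, and polymerases delta and epsilon extend them, held on DNA by the sliding clamp PCNA, which the RFC complex loads. RPA coats the single strands, Fen1 and Lig1 finish Okazaki fragments, and ribonucleotide reductase, thymidylate synthase and thymidine kinase supply the nucleotides. Mouse ES cells have a short G1 phase and spend much of their cycle in S phase, and many of these genes are known targets of the E2F transcription factors.

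Total counts lay between 15850805 and 16965120 per library. Glyr1 itself was at 22.7% of its WT mean in the KO libraries (log2 fold change -2.14, adjusted p = 0.00174). All 10 ES cell markers examined were read in every library, and their summed expression was 7575 and 6097 CPM in WT cells and 5579 and 5173 CPM in Npac KO cells. CPM here is the usual depth-scaled count of a gene, with library sizes scaled by TMM. Zfp42 alone of the 10 passed the test (log2 fold change -2.64), and with DESeq2 3 did. The 8 fibroblast markers summed to 41.1 to 76.2 CPM in every library, with Col3a1 and Dcn listed at 0, Lum and Postn at 1 read or fewer and Col1a1 called higher in KO cells (log2 fold change 1.29). The 6 endoderm markers summed to 12.5 to 26.5 CPM, with Afp and Ttr at 3 reads or fewer and Sox7 called lower (log2 fold change -4.48).

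The replication genes as a set leaned upwards in Npac KO cells, but most single genes did not pass the test. Cdc6, Cdt1, Pold1, Rpa1, Rrm2 and Tk1 rose, and Pola1, the catalytic subunit of polymerase alpha, fell to 29.5% of its WT mean. Cdc6, Cdt1, Rpa1 and Tk1 lie on chromosomes 8 and 11, whose genes as a whole were higher in KO cells (described below). With chromosome medians removed these genes no longer passed, while Pold1, Rrm2 and Pola1 still did. A gene was called when the quasi-likelihood test of edgeR gave an adjusted p (Benjamini-Hochberg) under 0.05 over all 18157 genes tested and its fold change was over 1.5. All 45 passed the filter on low counts. The 6 higher genes were 13.3% of the list, against 11% of all genes tested, and the 1 lower gene was 2.22%, against 10.7%. The share called higher was therefore close to the background, and the share called lower was under it.

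The lean of the set is seen in the order of the libraries and in the median. In 24 of the 45 genes (53.3%) both KO libraries lay above both WT libraries, against 33.2% of all genes tested. In 6 genes (13.3%) both lay below, against 32.5%, and in 15 genes the genotypes overlapped. The median log2 fold change was 0.22, against 0.0015 over all genes, with 31 genes above 0 and 14 below. Together the 45 genes took 0.662% and 0.683% of the reads in WT1 and WT2 and 0.794% and 0.785% in KO1 and KO2. In bulk RNA a different share of cells in S phase and a different amount of RNA per cell cannot be told apart.

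**Figure D1:**
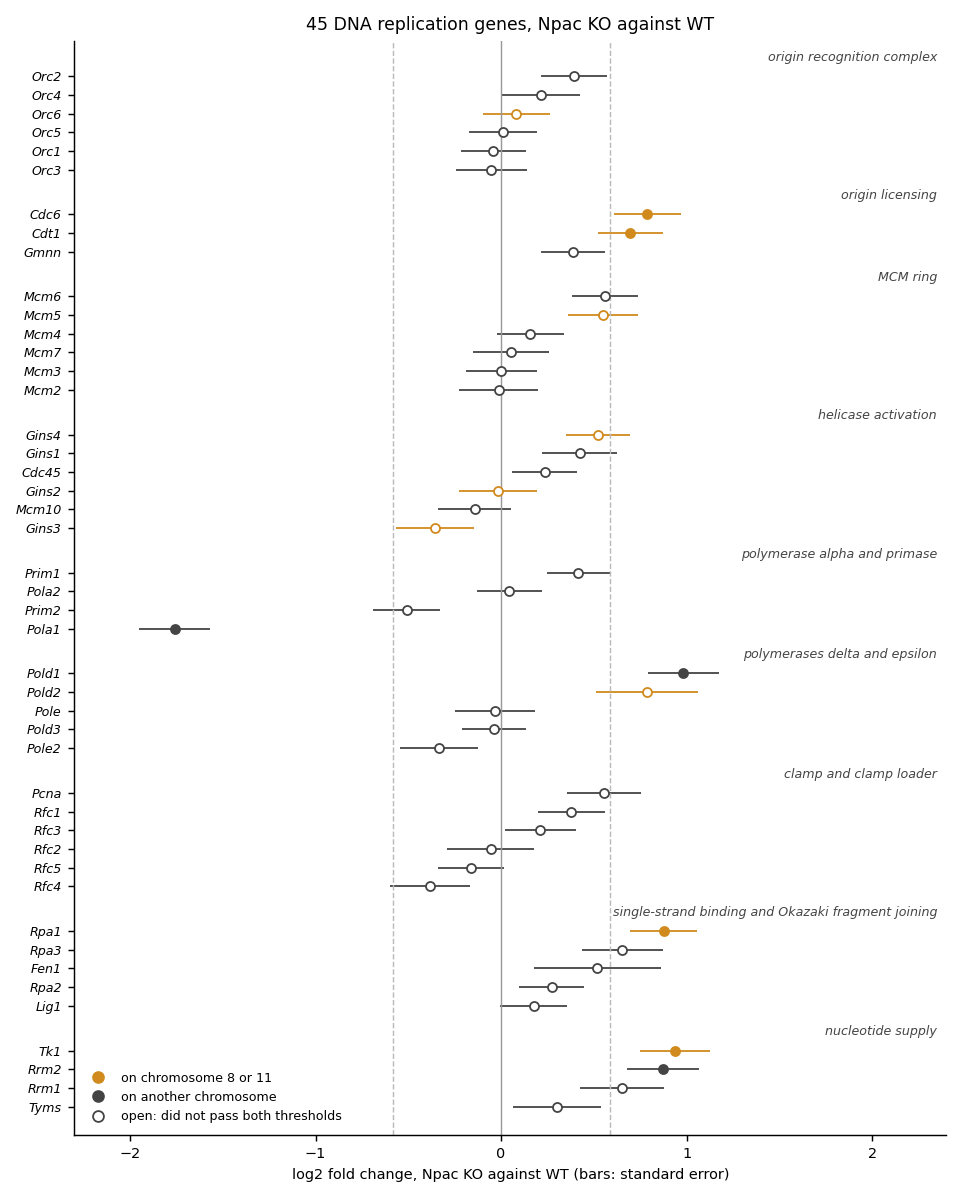
Log2 fold change (Npac KO against WT, horizontal axis) of each of the 45 replication genes, in 9 functional groups, with standard errors as bars. Filled points passed both thresholds and dashed lines mark a fold change of 1.5; Pola1 at -1.76 stands alone on the left, and the 6 filled points on the right lie between 0.70 and 0.98.

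The promoters of these genes were read to see what the members share in sequence. RefSeq windows (build GRCm38.p6, from 250 bases before to 50 bases after the start) were matched by symbol for 37 of the 45 genes. The E2F-type words TTTGGCGC, TTTGCCGC, TTTCGCGC and TTTCCCGC were searched on both strands. At least 1 word was found for 15 of the 37 genes (40.5%), against 704 of all 27025 genes with a window (2.60%). By windows, 15 of 45 held a word (33.3%), against 744 of 32851 (2.26%). The windows of all genes were not matched to those of the members for base composition or expression. The 15 genes were Orc1, Orc3, Cdc6, Cdt1, Mcm3, Mcm5, Mcm6, Mcm7, Gins3, Pola1, Pold1, Pold3, Pole2, Rfc3 and Lig1.

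Shown are 6 stretches of 100 bases upstream of the start, because they pair genes that carry the same kind of word with different changes in expression. Cdc6 (chr11:98907967-98908066, plus strand) was called higher and Pola1 (chrX:93632240-93632339, minus strand) was called lower. Orc1 (chr4:108579354-108579453, plus strand), Mcm5 (chr8:75109312-75109411, plus strand) and Mcm6 (chr1:128359731-128359830, minus strand) were not called. Rrm2 (chr12:24708154-24708253, plus strand) was called higher and held none of the words in its window. Sequences run 5′ to 3′ on the strand of the gene, and capitals mark the words, which overlap one another in Mcm5 and at the first place in Mcm6.
Cdc6: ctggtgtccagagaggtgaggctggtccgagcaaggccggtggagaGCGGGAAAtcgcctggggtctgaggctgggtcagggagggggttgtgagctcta
Pola1: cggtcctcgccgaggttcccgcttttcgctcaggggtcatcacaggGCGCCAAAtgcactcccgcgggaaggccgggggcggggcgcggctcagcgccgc
Orc1: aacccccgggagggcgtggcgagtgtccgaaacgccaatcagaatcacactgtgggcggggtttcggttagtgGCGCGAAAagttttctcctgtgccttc
Mcm5: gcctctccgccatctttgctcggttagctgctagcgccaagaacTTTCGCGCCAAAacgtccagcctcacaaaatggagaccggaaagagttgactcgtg
Mcm6: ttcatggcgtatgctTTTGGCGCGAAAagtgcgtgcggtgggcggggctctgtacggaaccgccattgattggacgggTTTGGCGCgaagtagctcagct
Rrm2: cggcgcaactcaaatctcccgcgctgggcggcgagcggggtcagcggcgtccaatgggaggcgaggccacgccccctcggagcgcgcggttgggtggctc

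Genes with and without the word both held called members. Among the 15 with it, Cdc6, Cdt1 and Pold1 were called higher and Pola1 lower, with a median log2 fold change of 0.05 (range -1.76 to 0.98). Among the 22 matched genes without it, Rpa1, Rrm2 and Tk1 were called higher, with a median of 0.34 (range -0.38 to 0.94). A match describes the letters in the window and does not show that a factor binds there.

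For origin recognition, the 6 ORC genes were close to their WT levels, and none was called by edgeR, by DESeq2 or by limma on the FPKM values, with 0 of 6 at an unadjusted p under 0.05 in edgeR. Orc2, a core subunit, had the largest value of the group, at 88.8 and 77.6 CPM in WT1 and WT2 and 106 and 113 CPM in KO1 and KO2. The genotypes did not overlap, but the log2 fold change of 0.40 (SE 0.18) did not pass (adjusted p = 0.148). Orc6, with the highest mean CPM of the 6 over all libraries, read 156 and 144 CPM in WT cells and 147 and 171 CPM in KO cells, which overlap (log2 fold change 0.08). Orc1, Orc3, Orc4 and Orc5 lay between -0.05 and 0.22 on the log2 scale and also overlapped. By annotation, 29.8% of the exonic length of Orc2 is shared with Nif3l1 on the other strand, and the strand setting used in counting is not given in the sources used here.

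Both loading factors were called higher, but neither was called with chromosome medians removed. Cdc6 (ENSMUSG00000017499, chromosome 11), the ATPase that joins ORC at origins, read 49.6 and 54.0 CPM in WT1 and WT2 and 86.2 and 92.8 CPM in KO1 and KO2. The mean went from 51.8 ± 3.07 CPM to 89.5 ± 4.65 CPM (SD, n = 2 each), a log2 fold change of 0.79 (SE 0.18, adjusted p = 0.0202 by edgeR). Cdt1 (ENSMUSG00000006585, chromosome 8), which brings the MCM ring to the origin, read 146 and 158 CPM in WT cells and 258 and 234 CPM in KO cells. Neither gene overlapped between genotypes, and the change of Cdt1 was 0.70 on the log2 scale (SE 0.18, adjusted p = 0.0295). Gmnn, the inhibitor of Cdt1, had a log2 fold change of 0.39 with the KO libraries above the WT libraries, and it did not pass (adjusted p = 0.145). On the length-corrected FPKM scale the level of Cdt1 relative to Gmnn was 1.10 and 1.19 in WT cells and 1.48 and 1.36 in KO cells. Cdc6 lies on chromosome 11 and Cdt1 on chromosome 8, whose genes as a whole were higher in both KO libraries (described below). With the median of its chromosome removed, Cdc6 stood at 0.33 and Cdt1 at 0.21 (adjusted p = 0.232 and 0.431 by edgeR). Gmnn, on chromosome 13, stood at 0.44 in that fit, so the order of Cdt1 and Gmnn turned.

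**Figure D2:**
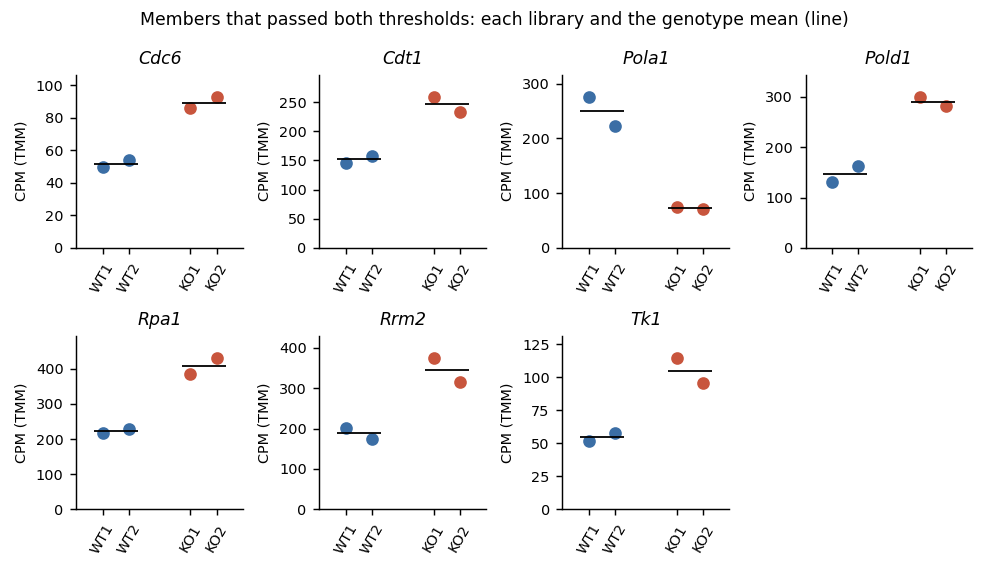
TMM-scaled CPM (vertical axis, from 0) of the 7 called replication genes in each library, with a line at the mean of each genotype. In every panel the KO pair and the WT pair are apart; Pola1 is the panel where the KO pair is lower, at 75.4 and 71.9 CPM against 276 and 223 CPM.

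The MCM ring did not move as a unit. No subunit was called, and at an unadjusted p under 0.05 the edgeR test found 2 of the 6, Mcm5 and Mcm6, both higher; DESeq2 and limma also called none. Mcm6 read 352 and 362 CPM in WT cells and 550 and 504 CPM in KO cells (log2 fold change 0.56, SE 0.18, adjusted p = 0.0593). Mcm5 read 426 and 366 CPM against 608 and 549 CPM (log2 fold change 0.55, SE 0.19, adjusted p = 0.0736). Both genes fell short of the adjusted p threshold and of the fold change of 1.5, with no overlap between genotypes. Mcm5 lies on chromosome 8 and stood at 0.06 with the median of its chromosome removed (described below), against 0.60 for Mcm6.

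The other subunits of the ring stayed nearer to WT. Mcm4 read 337 and 303 CPM in WT cells and 371 and 344 CPM in KO cells, a log2 fold change of 0.16 with the KO libraries just above. Mcm7 read 462 and 391 CPM against 498 and 386 CPM, which overlap. Mcm3 read 478 and 403 CPM against 470 and 412 CPM, and its log2 fold change of 0.00067 changed sign with the scaling method. These 3 subunits showed differences smaller than or close to the gap between the libraries of 1 genotype. Mcm2 read 440 and 325 CPM against 408 and 350 CPM, which overlap, with a log2 fold change of -0.01 that turned positive under upper-quartile scaling.

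Helicase activation factors were mixed, and no member of the group was called by edgeR or DESeq2, with 1 of 6 at an unadjusted p under 0.05 in each. That gene was Gins4, a GINS subunit, at 59.2 and 62.5 CPM in WT cells and 87.3 and 87.5 CPM in KO cells (log2 fold change 0.52, SE 0.17, adjusted p = 0.0668). The 4 GINS genes spread from Gins3 at -0.35 to Gins4 at 0.52, with Gins1 at 0.42 and Gins2 at -0.02, although their proteins form 1 complex. Gins2, Gins3 and Gins4 lie on chromosome 8, whose genes as a whole were higher in both KO libraries (described below). With the median of its chromosome removed, Gins4 stood at 0.035 (adjusted p = 0.903 by edgeR). In that fit Gins2 stood at -0.51, Gins3 at -0.84 and Gins1, on chromosome 2, at 0.46. Mcm10, a scaffold of the activated helicase and the highest of the group in mean CPM over all libraries, not corrected for length, read 220 and 174 CPM against 192 and 165 CPM, which overlap (log2 fold change -0.14). Cdc45 had a log2 fold change of 0.23. For Gins2, 67.3% of the exonic length is shared with Gse1 on the other strand. Gse1, also on chromosome 8, had a log2 fold change of 0.55 that was not called. With the median of its chromosome removed, Gse1 stood at 0.06.

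The clearest change was in the polymerase alpha and primase complex, where the subunits went separate ways. Pola1 (ENSMUSG00000006678, chromosome X), the subunit that extends the RNA primer with DNA, read 276 and 223 CPM in WT1 and WT2 and 75.4 and 71.9 CPM in KO1 and KO2. Its mean went from 249 ± 37.0 CPM to 73.6 ± 2.49 CPM (SD, n = 2 each), and it fell by 1.76 on the log2 scale (SE 0.19, adjusted p = 0.00186 by edgeR). The highest KO library was well under the lowest WT library, and the counts behind these values were 4208 and 3899 reads in WT cells and 1172 and 1244 reads in KO cells.

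None of the 3 partners of Pola1 was called in edgeR, and at an unadjusted p under 0.05 Prim1 was higher and Prim2 lower. Pola2, the accessory subunit that anchors the complex, had a log2 fold change of 0.04 with overlapping genotypes. Prim1, the catalytic primase subunit, had a value of 0.42 and Prim2, the large primase subunit, a value of -0.51 (adjusted p = 0.117 and 0.0789), each without overlap between genotypes and neither called. In FPKM, the level of Pola1 relative to Pola2 was 2.2 and 1.65 in WT cells and 0.593 and 0.508 in KO cells. Prim2 relative to Prim1 was at 0.457 and 0.447 in WT cells and at 0.240 and 0.236 in KO cells. By FPKM, Pola1 had the highest mean of the 4 subunits in WT cells (28.1), while in KO cells Prim1 had the highest (32.0) and Pola1 stood at 8.27, beside Prim2 at 7.62.

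Among the replicative polymerases, the catalytic subunit of polymerase delta rose and the polymerase epsilon genes were not called. Pold1 (ENSMUSG00000038644, chromosome 7) read 131 and 163 CPM in WT cells and 299 and 281 CPM in KO cells. Its mean went from 147 ± 22.7 to 290 ± 12.9 CPM (SD, n = 2 each), a log2 fold change of 0.98 (SE 0.19, adjusted p = 0.0126), the largest rise of the 45 genes. Pole, the catalytic subunit of polymerase epsilon and the highest of the group in mean CPM over all libraries, though not per length, read 265 and 193 CPM against 241 and 207 CPM, which overlap (log2 fold change -0.03).

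The smaller subunits differed as well. Pold2 had a log2 fold change of 0.79 that edgeR did not call (adjusted p = 0.0769) and DESeq2 did (adjusted p = 0.0369). WT1 and WT2 were themselves far apart for this gene, at 92.8 and 167 CPM, and without WT1 the log2 fold change was 0.40. Pold2 lies on chromosome 11, and with the median of its chromosome removed (described below) it stood at 0.32 (adjusted p = 0.442 by edgeR). Pold3 was at -0.04 with overlap and Pole2 at -0.34 without overlap, neither called. In FPKM, Pold1 relative to Pold3 was at 1.23 and 1.40 in WT cells and at 2.82 and 2.53 in KO cells.

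**Figure D3:**
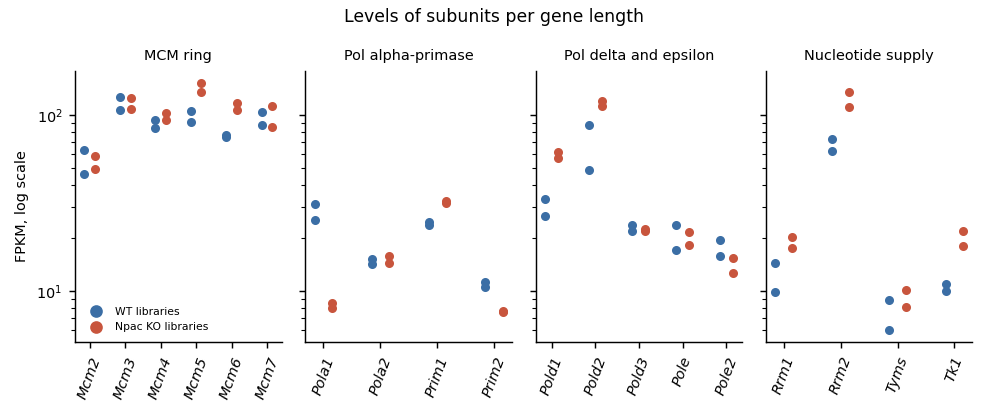
FPKM (log axis) of the subunits of 4 groups of replication genes, with each point a library, WT in blue and Npac KO in red. Pola1 drops from 28.1 to 8.27 mean FPKM while Pola2 overlaps, and Mcm5 and Mcm6 lie higher in KO cells while Mcm2 and Mcm3 overlap.

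The clamp and its loader gave no call in edgeR, DESeq2 or limma, with 1 of the 6 genes, Pcna, at an unadjusted p under 0.05 in each. Pcna read 148 and 118 CPM in WT cells and 211 and 180 CPM in KO cells, with no overlap, at a log2 fold change of 0.55 (SE 0.20, adjusted p = 0.0813). Rfc1, the large loader subunit and the highest of the group in mean CPM over all libraries, though not per length, read 198 and 176 CPM against 253 and 234 CPM, also without overlap (log2 fold change 0.38, adjusted p = 0.164). Rfc2, Rfc3, Rfc4 and Rfc5 lay between -0.38 and 0.21. The RFC subunits therefore spread on both sides of WT.

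The difference in Pcna was close in size to an opposite difference in its processed pseudogene Pcna-ps2 on chromosome 19, whose transcript is 99.2% identical to Pcna. Reads counted on Pcna were 2262 and 2064 in WT1 and WT2 and 3279 and 3117 in KO1 and KO2. Those counted on Pcna-ps2 were 944 and 936 in WT cells and 34 and 29 in KO cells, a log2 fold change of -4.90 (adjusted p = 0.000123). The pseudogene thus held 29.4% and 31.2% of the summed reads in WT cells and 1.03% and 0.922% in KO cells. Added together, the 2 genes gave 3206, 3000, 3313 and 3146 reads, and the log2 fold change of the sum was 0.05 (SE 0.19, adjusted p = 0.879). How the counting shared reads between the copies was not tested, so the value for Pcna alone is uncertain. No other matched pseudogene of a member had more than 14 reads in a library.

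**Figure D4:**
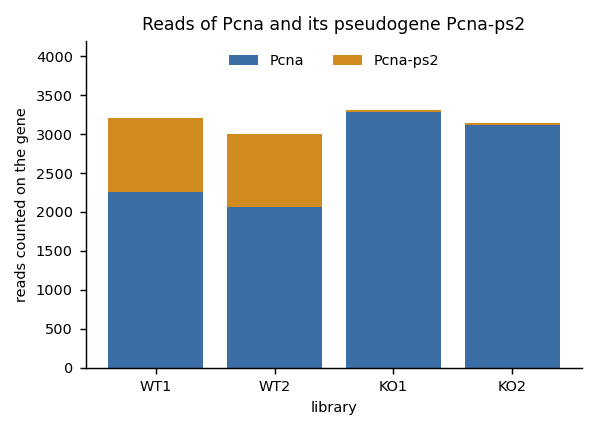
Reads counted on Pcna (blue) and on its pseudogene Pcna-ps2 (orange) in each library, stacked from 0. The summed height is 3000 to 3313 reads in all 4 libraries, while the orange part shrinks from 944 and 936 reads in WT cells to 34 and 29 reads in KO cells.

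Genes for single-strand binding and Okazaki fragment joining all had KO libraries above WT libraries, 5 of 5 against 33.2% of all genes tested, and 1 of them was called. Rpa1 (ENSMUSG00000000751, chromosome 11), the large subunit of RPA that contacts DNA, read 216 and 228 CPM in WT cells and 386 and 430 CPM in KO cells. Its mean went from 222 ± 8.69 to 408 ± 30.9 CPM (SD, n = 2 each), or 0.88 on the log2 scale (SE 0.18, adjusted p = 0.0147). Its partners Rpa2 and Rpa3 were at 0.27 and 0.65 and were not called (adjusted p = 0.297 and 0.069). Lig1, the ligase that seals Okazaki fragments and the highest of the group in mean CPM over all libraries, read 320 and 329 CPM against 392 and 341 CPM (log2 fold change 0.18). The RPA subunits thus differed in size of change but not in its sign. By FPKM, Rpa1 relative to Rpa2 was at 1.01 and 1.00 in WT cells and at 1.37 and 1.72 in KO cells. Genes on chromosome 11, where Rpa1 lies, were as a whole higher in both KO libraries (described below). With the median of its chromosome removed, Rpa1 stood at 0.41, Rpa2 at 0.29 and Rpa3 at 0.76. Fen1, the flap nuclease, had the lowest FPKM of the 45 genes, 2.09 in WT cells against 76.1 for Lig1. By annotation 84.2% of its exonic length is shared with Gm10143 and Tmem258 on the other strand. Its level, resting on 81 to 127 reads, is therefore uncertain.

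Nucleotide supply had the highest median of the 9 groups, 0.76, and 2 of its 4 genes rose. Rrm2 (ENSMUSG00000020649, chromosome 12), the S-phase subunit of ribonucleotide reductase, read 202 and 174 CPM in WT cells and 374 and 314 CPM in KO cells. Its mean went from 188 ± 20.4 to 344 ± 41.9 CPM (SD, n = 2 each), a log2 fold change of 0.87 (SE 0.19, adjusted p = 0.0188). Tk1 (ENSMUSG00000025574, chromosome 11), the cytosolic thymidine kinase, read 51.9 and 57.5 CPM against 114 and 95.4 CPM. The means of 54.7 ± 4.0 and 105 ± 13.2 CPM (SD, n = 2 each) differed by 0.94 on the log2 scale (SE 0.19, adjusted p = 0.014). Rrm1, the large reductase subunit, was at 0.65 (adjusted p = 0.0753), and Tyms, the thymidylate synthase, was at 0.30 with overlapping genotypes. In FPKM, Rrm2 relative to Rrm1 was at 5.05 and 6.34 in WT cells and at 6.61 and 6.37 in KO cells, so the KO values lay just beyond the WT values. Genes on chromosome 11, where Tk1 lies, were as a whole higher in both KO libraries (described below). With the median of its chromosome removed, Tk1 stood at 0.47 and was not called (adjusted p = 0.113 by edgeR). In that fit Rrm2 stayed called at 0.97, and the median of the group was 0.57.

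The proteins of the MCM ring join in equal numbers. Mean FPKM values of its genes were within 2.14-fold of each other in WT cells and within 2.66-fold in KO cells. FPKM divides by the annotated exonic length of a gene, 6956 bases for Mcm2 and from 3589 (Mcm4) to 4666 (Mcm6) for the others. The length of the transcripts present was not measured. Mean FPKM in WT cells ran from Mcm3 (117) through Mcm5 (98.4), Mcm7 (95.6), Mcm4 (88.6) and Mcm6 (76.0) to Mcm2 (54.6). Mcm5 overlapped with Mcm7 and Mcm7 with Mcm4, while both libraries of Mcm6 (75.0 and 77.0) lay under both of Mcm4 (93.4 and 83.8). The lower library of Mcm3 (107) lay just above the higher one of Mcm5 (106), and Mcm2, at 62.8 and 46.4, lay under every other subunit. In CPM, not corrected for length, the WT mean of Mcm2 (383) lay above those of Mcm6 (357) and Mcm4 (320). The order of the subunits therefore depends on the annotated length. In KO cells Mcm5 came first (143), at 152 and 135 FPKM, above Mcm3 at 125 and 108. Mcm5 relative to Mcm3 was at 0.836 and 0.854 in WT cells and at 1.22 and 1.25 in KO cells. Mcm6 relative to Mcm2 was at 1.19 and 1.66 in WT cells and at 2.01 and 2.14 in KO cells. Cdc6 relative to Orc1, loader against recognition subunit, was at 0.468 and 0.466 in WT cells and at 0.808 and 0.854 in KO cells. These ratios are given as descriptions, with no test. Mcm5 lies on chromosome 8 and Cdc6 on chromosome 11, whose genes as a whole were higher in both KO libraries (described below). With the median of its chromosome removed, Mcm5 stood at 0.06 and Mcm3 at 0.04 on the log2 scale. In that fit Cdc6 stood at 0.33 and Orc1 at -0.02, and Mcm6 at 0.60 and Mcm2 at 0.10.

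The called genes were not spread evenly over the chromosomes. Genes on chromosomes 8 and 11 as a whole were higher in both KO libraries, with medians of 0.48 and 0.49 for chromosome 8 and 0.48 and 0.45 for chromosome 11 in KO1 and KO2 against the WT mean. On the other chromosomes these medians lay between -0.19 and -0.0033. On these chromosomes lie 10 members, namely Orc6, Cdt1, Mcm5, Gins2, Gins3 and Gins4 on chromosome 8 and Cdc6, Pold2, Rpa1 and Tk1 on chromosome 11. Of these 10, 4 (40.0%) were called higher, against 26.5% of all genes tested there, and their median was 0.62. Of the 35 members elsewhere, 2 (5.71%) were called higher, Pold1 and Rrm2, against 8.61% of genes tested there, with a median of 0.18.

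With the median of its chromosome removed from each KO library, 4 of the 6 rises were no longer called. In that fit Cdc6 stood at 0.33 (adjusted p = 0.232), Cdt1 at 0.21 (adjusted p = 0.431), Rpa1 at 0.41 (adjusted p = 0.142) and Tk1 at 0.47 (adjusted p = 0.113). Pold1 at 1.01 (adjusted p = 0.0131) and Rrm2 at 0.97 (adjusted p = 0.016) stayed called, and Rpa3 joined them at 0.76 (adjusted p = 0.0493). These 3 members were 6.67% of the list, against 9.34% of all genes called higher in that fit. Called lower were 2 members, or 4.44%, against 9.78%, namely Pola1 at -1.72 (adjusted p = 0.0024) and Gins3 at -0.84 (adjusted p = 0.0311). Orc6 moved from 0.08 to -0.40 and Mcm5 from 0.55 to 0.06, and the medians became 0.14 for the 10 members and 0.20 for the other 35. Mcm6 on chromosome 1 stood at 0.60 (adjusted p = 0.0507). The cause of the shift of these chromosomes was not tested.

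**Figure D5:**
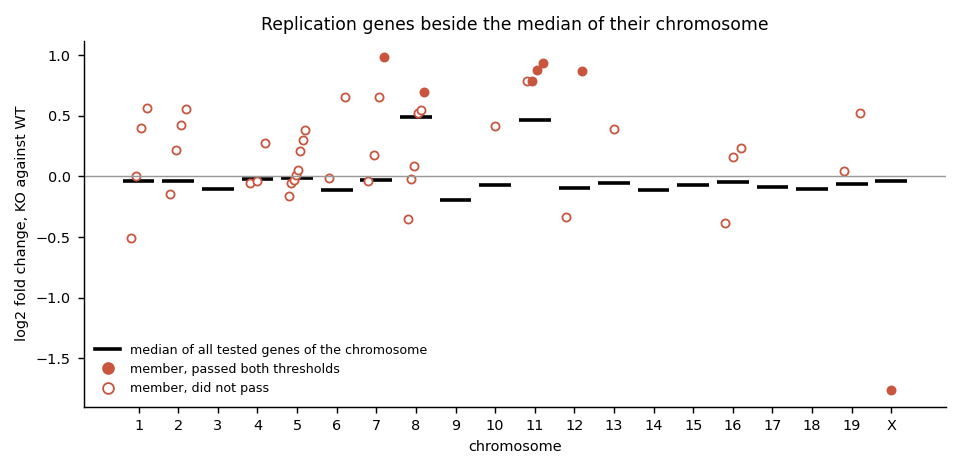
Log2 fold change (KO against WT, vertical axis) of each replication gene by chromosome, with a bar at the median of all tested genes of that chromosome and filled points for called genes. The bars of chromosomes 8 and 11 stand near 0.48 and carry 4 of the 6 called rises, while Pold1 on chromosome 7, Rrm2 on chromosome 12 and Pola1 on X lie far from bars near 0.

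All 6 rises depended on having both KO libraries. With KO1 or KO2 left out in turn, the lone KO library was assumed to vary like the WT pair, and edgeR then called 0 members higher in either case, with 6 and 8 higher at an unadjusted p under 0.05. Over all genes the number called higher went from 1999 to 851 without KO1 and to 826 without KO2. The log2 fold changes of Cdc6, Cdt1, Pold1, Rpa1, Rrm2 and Tk1 nevertheless stayed between 0.61 and 1.14 over all 4 omissions. Pola1 stayed called in all 4, between -1.91 and -1.63. Without WT1 there were 9 members called higher, adding Mcm5, Pcna and Rrm1, and Rfc4 was then called lower. Without WT2 there were 8, adding Pold2 and Rpa3.

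Beyond the 45 genes, a list of 38 further replication factors, all tested, gave similar shares of calls. Of these 38, 6 were called higher (15.8%, against 11% of all genes) and 1 lower (2.63%, against 10.7%). Dna2, a nuclease that trims long flaps, had a log2 fold change of 1.12, and Top2a, which untangles replicated DNA, of 1.03 (adjusted p = 0.00682 and 0.0124). The other rises were Rrm2b (0.84), Dut (0.80), Dck (0.73) and Top1 (0.59), of which Rrm2b, Dut and Dck act in nucleotide supply and Top1 relieves torsion ahead of the fork. Mtbp, a partner of Ticrr in origin firing, fell by 1.24 (adjusted p = 0.00992). The median of the list was 0.21, and the KO pair lay wholly above the WT pair in 16 genes (42.1%, against 33.2%) and below in 11 (28.9%, against 32.5%). The share below was thus near that of all genes, unlike the 13.3% of the 45 genes. Top2a lies on chromosome 11 and was not called with chromosome medians removed (0.57, adjusted p = 0.0797). Without KO1 and without KO2, 2 and 1 of the 38 genes were called higher.

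The E2F and RB family governs transcription of many replication genes. A list of this family with Lin9, Lin37, Lin52, Lin54 and Mybl2, mixing activators and repressors, did not share the upward lean. Of 18 genes tested, 2 were called higher (11.1%, against 11%) and 3 lower (16.7%, against 10.7%), and the median was -0.13. Rbl2, a pocket protein that represses E2F targets in quiescence, and Tfdp1, the partner of E2F proteins on DNA, had log2 fold changes of 1.09 and 0.83 (adjusted p = 0.0281 and 0.0152). Both lie on chromosome 8, and with chromosome medians removed neither was called (adjusted p = 0.156 and 0.195). E2f2, an activating E2F, fell by 1.41 (adjusted p = 0.0061), E2f6, a repressive E2F, fell by 0.76 (adjusted p = 0.0375) and Tfdp2, another partner, was at -0.63 (adjusted p = 0.0468) and also fell. With chromosome medians removed, E2f2 was the one of these 3 still called. E2f1, the best known activator, was at -0.08 and was not called (adjusted p = 0.774). Without KO2 no E2F or RB gene was called by edgeR, with 1 higher and 2 lower at an unadjusted p under 0.05.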

How the data were processed

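RNA-seq of 2 WT and 2 Npac KO libraries was analysed. The authors mapped paired-end reads and deposited unnormalized counts of reads on each gene, beside FPKM values made from those counts. The submitters' processing notes list CASAVA, HISAT2 2.0.5, featureCounts 1.5.0-p3 and mm10. Gene positions in the deposited table equalled the GRCm38 annotation (GENCODE M21) for 2 of 45 members, so only chromosomes are given from it; gene lengths equalled M21 exon lengths for 44. The strand setting is not given in the sources used here. Counts were fitted in R 4.3.3 with edgeR 4.0.16 (TMM, filterByExpr, quasi-likelihood test), without a replicate block; adjusted p are Benjamini-Hochberg values over 18157 genes from this fit unless another is named. The common biological coefficient of variation was 0.235. CPM is given as mean ± SD. FPKM divides by the annotated exonic length of a gene, so FPKM levels of different genes also depend on the annotation. Alternatives were DESeq2 1.42.0, limma-trend 3.58.1 on log2(FPKM + 0.1), other scalings and filters, chromosome medians removed and each library left out. Pseudogenes were matched by blastn 2.17.0+ (90% identity over 60% of length), an alternative chosen after seeing the data. Exon overlaps come from M21 and promoters from RefSeq.

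Values in every library are given for called members, for the member with the largest change and the member with the highest mean CPM over all libraries in each of the 9 groups, and for Pcna and Mcm2 to Mcm7. Of the other lists, up to 10 called genes each are named. Members, groups and lists were chosen with earlier results of these data known, so no list was tested. Members named outside this rule were chosen after their values were seen. Splicing was not analysed here.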

Additional observations from a re-analysis of the deposited data

How the results depend on the processing

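Pola1 was called lower and its log2 fold change kept its sign under every alternative run. The 6 called rises kept their sign under all of them, and lost the call with chromosome medians removed (Cdc6, Cdt1, Rpa1, Tk1) or without KO1 or without KO2 (all 6). Only 2 libraries per genotype were at hand, and a missed call does not show that a gene did not differ.

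The replicate numbers 1 and 2 in the labels are shared by the genotypes, but nothing ties WT1 to KO1, and 2 pairs cannot settle it (correlation of the deviations of WT1 and KO1 from their genotype means 0.345). With a replicate block, 3128 genes were called higher and 2994 lower, against 1999 and 1946 without it, and 9 members higher and 1 lower, the 3 added being Pold2, Rpa3 and Rrm1. The block gave 3 further replication factors lower and 4 E2F and RB genes higher.

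With chromosome medians removed, 3 members were called higher and 2 lower, with 0 E2F and RB genes higher (2 at an unadjusted p under 0.05 in edgeR) and 1 lower. Group medians then were 0.33 for licensing, -0.036 for helicase activation, -0.18 for polymerase alpha and primase, 0.41 for single-strand binding and 0.57 for nucleotide supply. Members outside chromosomes 8 and 11 had a median of 0.18 and those on them of 0.62 before this removal, and of 0.20 and 0.14 after it. Upper-quartile scaling gave 0.55 for single-strand binding and added the call of Mcm6, DESeq2 added Pold2, and no low-count filter added Pold2, Rpa3 and Rrm1. FPKM with limma called 1330 genes higher and 1226 lower, and 1 E2F and RB gene each way.

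Some members with values near 0 changed sign. Chromosome medians removed gave -0.40 for Orc6 and 0.10 for Mcm2, upper-quartile scaling gave 0.025 for Mcm2, 0.0086 for Gins2 and 0.0066 for Pole, and Mcm3 was -0.0053 with RLE scaling, -0.0033 with DESeq2 and -0.0016 with FPKM.

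Leaving out each library in turn gave 0 to 9 members higher and 1 to 2 lower, 1 to 8 further replication factors higher and 0 to 5 lower, 0 to 3 E2F and RB genes higher and 0 to 8 lower, and 826 to 3571 genes higher and 821 to 3384 lower. Group medians ranged from 0.61 to 0.75 for licensing, 0.073 to 0.22 for helicase activation, -0.016 to 0.19 for polymerases delta and epsilon, -0.074 to 0.28 for the clamp and its loader, 0.39 to 0.53 for single-strand binding and 0.17 to 0.27 for all members. The members whose sign turned ranged from -0.13 to 0.019 (Orc1), -0.22 to 0.10 (Orc3), -0.0058 to 0.44 (Orc4), -0.11 to 0.10 (Orc5), -0.017 to 0.18 (Orc6), -0.22 to 0.19 (Mcm2), -0.12 to 0.11 (Mcm3), -0.15 to 0.24 (Mcm7), -0.25 to 0.22 (Gins2), -0.31 to 0.012 (Mcm10), -0.040 to 0.11 (Pola2), -0.13 to 0.023 (Pold3), -0.25 to 0.19 (Pole) and -0.35 to 0.27 (Rfc2).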

Other observations

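On chromosome X, Pcyt1b and Pdk3, the tested genes nearest to Pola1, were not called by edgeR or DESeq2, but Pcyt1b depended on the WT libraries. Pcyt1b, the nearest, at 22.7 kb, read 72.2 and 36.6 CPM in WT cells and 36.2 and 30.6 CPM in KO cells (log2 fold change -0.70, adjusted p = 0.147), and Pdk3, at 132 kb, read 40.1 and 57.2 CPM against 38.4 and 42.7 CPM (log2 fold change -0.26, adjusted p = 0.437). Pcyt1b was called lower with a replicate block (-0.63, adjusted p = 0.0372), with no low-count filter (-0.69, adjusted p = 0.0292) and without WT2 (-1.12, adjusted p = 1.61e-06), and stood at -0.16 without WT1. Both genes lie on 1 side of Pola1. On the other side the nearest tested gene, Mageb11, lay 2411.6 kb away and was not called (log2 fold change 1.93). Farther off on that side, Gm27000 at 4544.5 kb had 35 and 28 reads in WT cells and 5 and 5 in KO cells. It was called lower (log2 fold change -2.64, adjusted p = 0.0188 by edgeR and 0.0329 by DESeq2). These genes were chosen for their position after the value of Pola1 was seen.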
